A study of Mus musculus with 6 samples.

Results

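Eukaryotic translation initiation factor 3 (eIF3) is the largest of the initiation factors, and the genes described here are its octamer subunits *Eif3a*, *Eif3c*, *Eif3e*, *Eif3f*, *Eif3h*, *Eif3k*, *Eif3l* and *Eif3m*, together with *Eif3d*, which docks on eIF3e. They were taken by symbol from a table of 24499 genes, which held a row for all 9. All 9 passed the filter on low counts, which kept 13296 genes. RNA sequencing covered YFP+ induced germinal centre B cells (iGCBs) from 3 cKO and 3 control mice, each library from the naïve splenic B cells of a separate mouse on the C57BL/6J background. The cKO mice carried 3 alleles: *Eif3e* fl/fl, the Cre allele *Cγ1*Cre, and the reporter *Rosa26-YFP* LSL, so that *Eif3e* is deleted, and YFP switched on, in cells that express Cre from the *Cγ1* locus, which opens in B cells activated with IL-4. The labels call the other group control, with cgWT in its library names, and since its cells were also sorted as YFP+, the control mice carried Cre and the reporter too. For the mice it compared by age in vivo, the study gives control as *Cγ1*Cre with *Rosa26-YFP* LSL, and names no floxed *Eif3e* there. In its survival cohort, mice with floxed *Eif3e* alleles or with *Cγ1*Cre were the controls. The floxed exons, and the age and sex of the mice were not given for these libraries in the sources used here. Naïve B cells from both groups were grown for 3 days, by the sample titles, on irradiated 40LB feeder cells, a fibroblast line that supplies CD40 ligand and BAFF, with 1 ng/ml IL-4.

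eIF3 binds the small ribosomal subunit, helps to load the initiator tRNA and the mRNA, and keeps the subunits from joining too early. Its octamer is built from PCI domain subunits, eIF3a, eIF3c, eIF3e, eIF3k, eIF3l and eIF3m, and from the MPN domain subunits eIF3f and eIF3h. eIF3d can bind the mRNA cap itself. Outside the octamer, eIF3b, eIF3g and eIF3i form a module tethered through eIF3a, and eIF3j binds loosely. In B cells that have just been activated, growth and division place a high demand on this machinery.

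Totals ranged from 39079582 to 45504570 counts per library, and correlations of log2 CPM (counts scaled to a common library total) between libraries of 1 group ranged from 0.964 to 0.972. Counts of 3, the lowest total taken as measurable, corresponded to 0.0659 to 0.0768 CPM, a limit that covers counting error only. The 6 B cell markers summed to 4464 to 4620 CPM in cKO and 4331 to 4687 CPM in control libraries. Of the germinal centre genes, *Fas* was higher in cKO (88.5 to 94.6 CPM, against 65.4 to 74.0 CPM in control libraries) and *Bcl6* was lower (81.3 to 86.8 against 99.9 to 109.5 CPM), both at an adjusted p under 0.05 (edgeR). The 10 markers of fibroblast feeder cells, which carry an intact *Eif3e*, summed to 109 to 134 CPM in cKO and 79.9 to 148 CPM in control libraries. Of these, *Col5a1*, *Fn1* and *Fbn1* were higher and *Lox* was lower in cKO, and *Fbn1* was at 3.09 to 4.56 CPM in cKO and at 0 in every control library. The 5 T cell markers summed to at most 0.355 CPM and the 4 myeloid markers to at most 0.611 CPM, with *Cd3e* and *Cd14* at 0 throughout. *Xist*, the RNA of the inactive X chromosome, had 53272, 58899 and 70912 counts in cKO replicate 2, control replicate 1 and control replicate 2, and at most 16 counts in the other libraries. The part of *Fas* and *Bcl6*, the feeder genes and *Xist* in the results below was not tested, beyond the fits with *Xist* as a covariate.

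*Eif3e*, the targeted gene, fell in the cKO iGCBs to 39.0% of its control level (95% interval 35.2 to 43.2%). Its RNA was at 173, 150 and 152 CPM in the cKO libraries and at 424, 401 and 392 CPM in the control libraries. The groups lay far apart, and the 3 cKO libraries stood at 42.7, 36.9 and 37.4% of the control mean. The means were 158 ± 13.1 and 406 ± 16.5 CPM (SD, n = 3 each), and the log2 ratio of cKO to control was −1.36 (standard error [SE] 0.0657, adjusted p = 6.71e-07, edgeR's quasi-likelihood test). Between 6433 and 7868 counts of *Eif3e* remained in each cKO library. Of the genes tested, 2.53% had a lower fold change than *Eif3e*, and 6.20% had a larger change in either direction. The gene lies on chr15:43250058-43282719 on the minus strand (GRCm38, GENCODE M21). The GENCODE transcript matched to its RefSeq transcript has 13 exons and is 1506 bases long, and the deposited counts are of the whole gene, so that reads from deleted exons cannot be told apart from the rest. GENCODE lists 4 processed pseudogenes of *Eif3e*, with which reads can be shared. In bulk libraries, fewer cells that express a gene and less RNA per cell cannot be told apart. The part of feeder RNA in the remaining *Eif3e* counts was not tested. The nearest neighbour with an expressed RNA, *Emc2*, a subunit of a membrane protein insertase 194510 bases away, had a log2 change of −0.05 (SE 0.0927, adjusted p = 0.710, edgeR). Farther away, *Nudcd1*, 1090444 bases off, was higher at 0.79 (adjusted p = 1.88e-05, edgeR) and *Oxr1*, 1389010 bases off, was lower at −0.77 (adjusted p = 0.000146, edgeR).

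**Figure D1:**
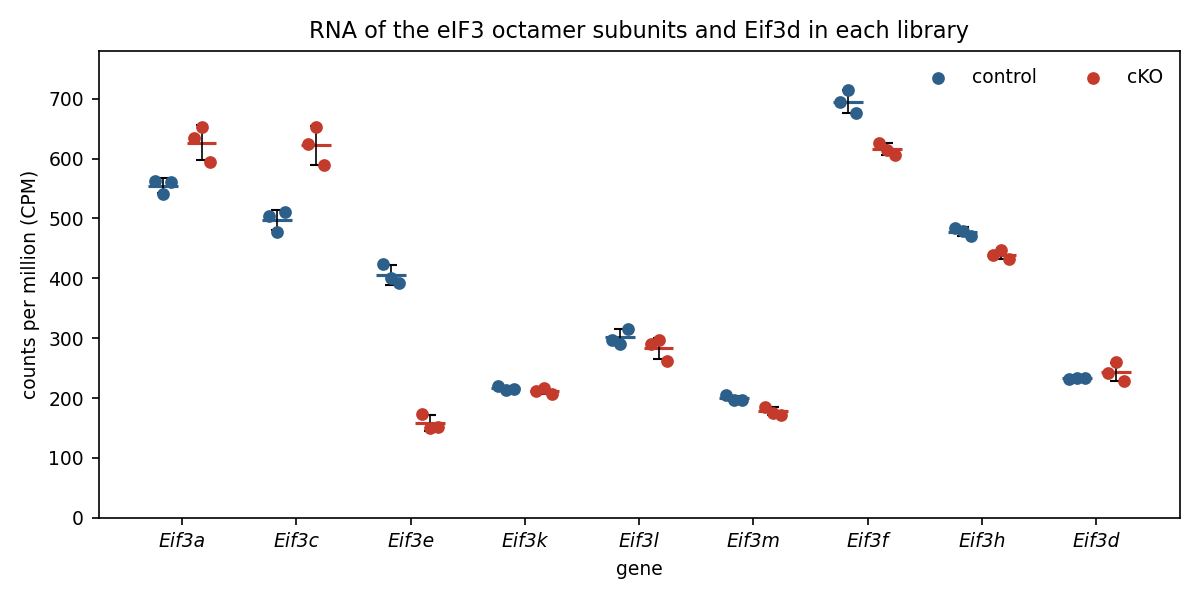
RNA of the 9 genes in each library, in CPM on a linear axis, with 1 point per library and a bar at the mean of each group of 3. *Eif3e* is at 150 to 173 CPM in cKO and 392 to 424 CPM in control libraries. The groups of *Eif3c* also do not overlap, at means of 622 CPM in cKO and 497 CPM in control libraries. The same holds for *Eif3a* (627 and 555), *Eif3f* (616 and 695), *Eif3h* (439 and 478) and *Eif3m* (178 and 200). Those of *Eif3k*, *Eif3l* and *Eif3d* overlap.

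Among the 9 genes, *Eif3e* alone passed the cutoffs of an adjusted p under 0.05 and a change over 1.5-fold, which 21% of all genes tested passed, 10.4% as higher and 10.6% as lower. At an adjusted p under 0.05 and any fold, 2 of the 9 genes were higher in cKO iGCBs and 4 were lower, including *Eif3e*, where 48.6% of all genes passed, 24.1% as higher and 24.5% as lower. For 6 of the 9, no cKO library overlapped the control range, and the same held for 58.7% of all genes. The median log2 fold change was −0.09 over the 9 genes, −0.06 without *Eif3e* and −0.004 over all genes tested. Without cKO replicate 2, only 1 higher and 2 lower of the 9 genes remained under an adjusted p of 0.05.

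The PCI scaffold subunits *Eif3a* and *Eif3c* were higher in cKO iGCBs. *Eif3c*, whose product forms much of the arc of the octamer and contacts eIF1, was at 624, 653 and 589 CPM in cKO and at 504, 478 and 510 CPM in control libraries. All cKO libraries lay above all control libraries, and the means were 622 ± 32.1 and 497 ± 17.1 CPM (SD, n = 3 each). Its log2 fold change was 0.32 (standard error 0.0530, 95% interval 0.21 to 0.44, adjusted p = 0.000623, edgeR), or 1.25-fold. It passed that threshold under all 13 alternatives of scaling, test, filter, covariate and libraries. *Eif3a*, the largest subunit, which carries the eIF3b module, was at 634, 652 and 594 CPM in cKO and at 562, 541 and 561 CPM in control libraries. Here too the groups did not overlap, with a log2 ratio of 0.18 (SE 0.0496, 95% interval 0.06 to 0.29, adjusted p = 0.0142, edgeR). Without cKO replicate 2 the adjusted p was 0.0505.

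The MPN subunits *Eif3f* and *Eif3h* and their PCI partner *Eif3m* were lower in cKO iGCBs, by small amounts. *Eif3f*, an MPN domain subunit, was at 626, 614 and 606 CPM in cKO and at 694, 714 and 676 CPM in control libraries. It was lower in every cKO library, with a log2 change of −0.17 (SE 0.0437, adjusted p = 0.00756, edgeR), and stayed past the threshold under all 13 alternatives. *Eif3m*, a PCI subunit that binds eIF3f and eIF3h, was at 186, 176 and 173 CPM in cKO and at 205, 197 and 197 CPM in control libraries. Its groups did not overlap, with a log2 ratio of −0.16 (SE 0.0499, adjusted p = 0.020, edgeR). The adjusted p of *Eif3m* was 0.0646 without cKO replicate 2, 0.0700 without cKO replicate 3, 0.0665 without control replicate 1 and 0.0559 with the *Xist* level as a covariate. *Eif3h*, the second MPN subunit, was at 439, 447 and 433 CPM in cKO and at 485, 479 and 470 CPM in control libraries. The libraries did not overlap, but the log2 fold change of −0.12 (SE 0.0447, adjusted p = 0.0455, edgeR) lay at the threshold. Leaving out any 1 of the 6 libraries gave an adjusted p between 0.0559 and 0.120 for *Eif3h*, and DESeq2 in place of edgeR gave an adjusted p of 0.0517.

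*Eif3k*, *Eif3l* and *Eif3d* did not pass the test, and their groups overlapped. *Eif3k* and *Eif3l*, whose products pair at the rim of the octamer, had log2 fold changes of −0.03 (95% interval −0.13 to 0.07, adjusted p = 0.612, edgeR) and −0.09 (−0.22 to 0.04, adjusted p = 0.231). *Eif3k* was at 211, 217 and 208 CPM in cKO and at 220, 214 and 216 CPM in control libraries. *Eif3l* was at 290, 296 and 262 CPM in cKO and at 298, 291 and 316 CPM in control libraries. *Eif3d*, whose product rests on eIF3e, was at 242, 260 and 229 CPM in cKO and at 232, 234 and 234 CPM in control libraries. Its SD was 15.7 CPM in cKO and 1.14 CPM in control libraries, and its log2 fold change was 0.06 (standard error 0.0546, 95% interval −0.06 to 0.18, adjusted p = 0.379, edgeR). These intervals leave room for changes of a few percent up to 0.22 on the log2 scale.

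**Figure D2:**
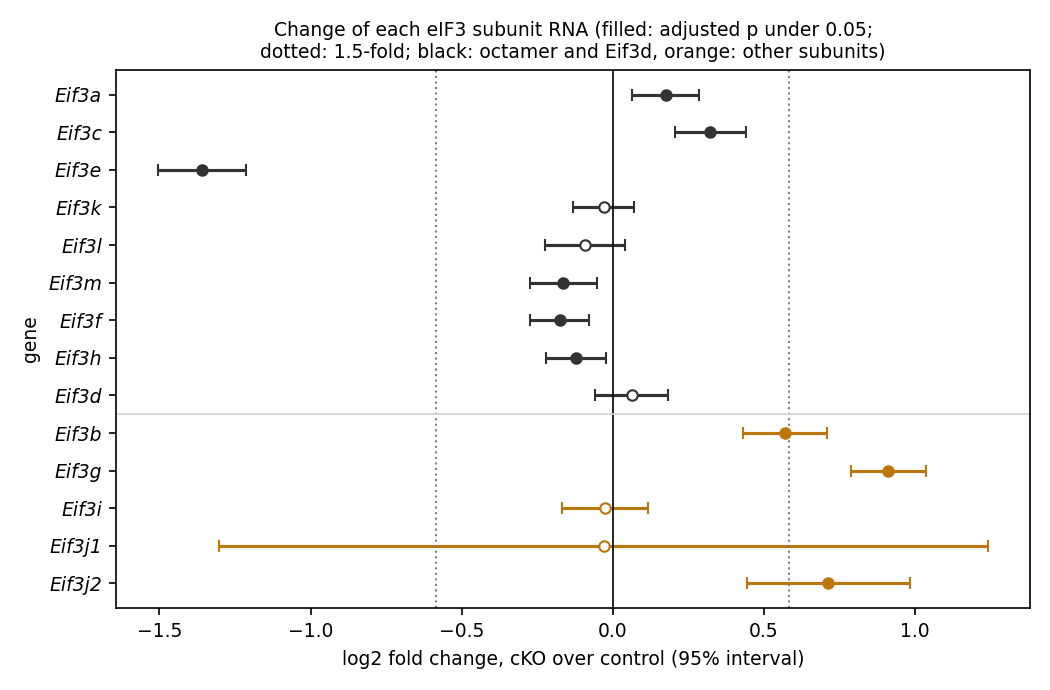
Log2 fold change of each eIF3 subunit RNA in cKO over control iGCBs, with its 95% interval, for the 9 genes (black) and the 5 other subunit genes (orange). Filled points have an adjusted p under 0.05 and dotted lines mark 1.5-fold. *Eif3e* stands at −1.36, the rest of the 9 lie between −0.17 and 0.32, and *Eif3g* reaches 0.91.

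Because ratios within a library do not depend on how libraries are scaled, the 9 RNAs were also compared in pairs. Of the 36 ratios, 30 did not overlap between cKO and control libraries, where 61.2% of the ratios of 1 of the 9 to a gene outside the group did not. With 3 mice against 3, an exact permutation test of 1 ratio cannot give a p below 0.1. All 8 ratios with *Eif3e* shifted, by 1.19 to 1.68 on the log2 scale. The largest shift was against *Eif3c*, which had 3.94 counts per count of *Eif3e* in cKO and 1.23 in control libraries. *Eif3e* to *Eif3d*, the ratio of the subunit to the partner that docks on it, was 0.649 in cKO and 1.74 in control libraries. Of the 28 ratios without *Eif3e*, 22 did not overlap. The 61.2% above includes ratios with *Eif3e*, and no such share was taken without them. All 12 ratios of *Eif3a* or *Eif3c* to *Eif3d*, *Eif3f*, *Eif3h*, *Eif3k*, *Eif3l* and *Eif3m* were higher in cKO in every library, by 0.114 to 0.497. Their direction follows from the fold changes given above, and they share 2 numerators, so they are not separate results. For *Eif3c* to *Eif3f* the ratio was 1.01 in cKO and 0.715 in control libraries, and for *Eif3a* to *Eif3f* it was 1.02 and 0.799. The ratio of *Eif3a* to *Eif3c* was 1.12 in control and 1.01 in cKO libraries. Among *Eif3f*, *Eif3h*, *Eif3l* and *Eif3m*, 5 of the 6 ratios overlapped between the groups, and the shifts were at most 0.0812. The sixth, *Eif3f* to *Eif3h*, moved by −0.05. *Eif3k* is not in this set. Its ratios to *Eif3m*, *Eif3f* and *Eif3h* did not overlap between the groups, with shifts of 0.134, 0.144 and 0.0908. Its ratio to *Eif3l* overlapped, with a shift of 0.0628.

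**Figure D3:**
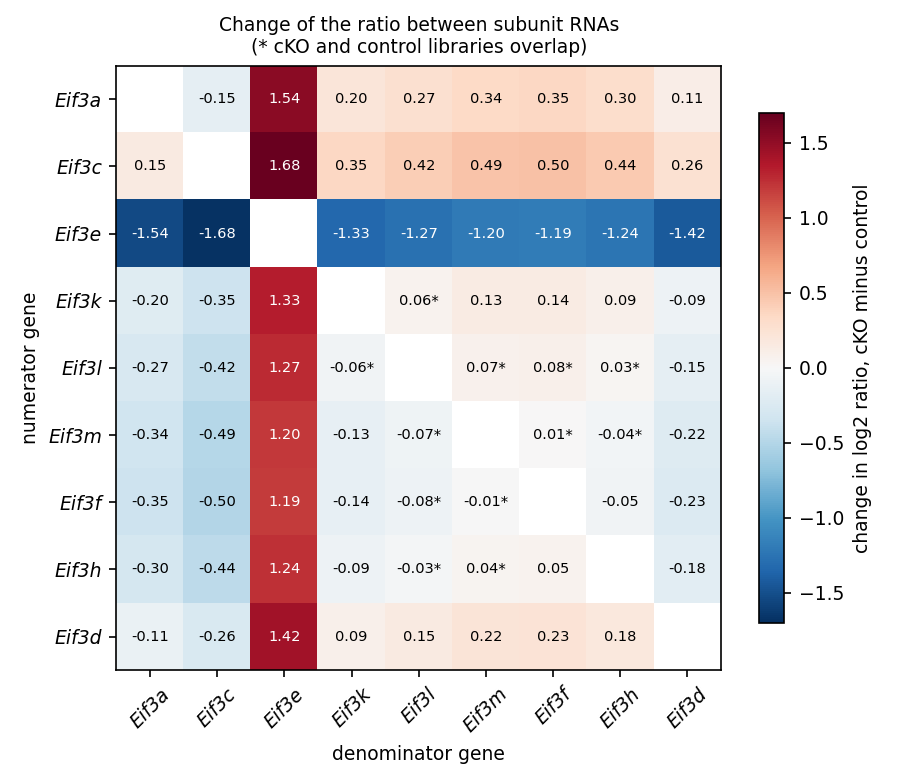
Change of the log2 ratio between each pair of the 9 RNAs, cKO minus control, with the numerator gene in rows and the denominator gene in columns, and a star where the cKO and control libraries overlap. The row and column of *Eif3e* hold shifts of 1.19 to 1.68 in size, and the rows of *Eif3a* and *Eif3c* are positive against *Eif3d*, *Eif3f*, *Eif3h*, *Eif3k*, *Eif3l* and *Eif3m*.

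Levels between genes were compared as CPM per kilobase of transcript, with the length of the GENCODE transcript matched to the RefSeq transcript with the most counts. In control iGCBs *Eif3h* was highest at 369 ± 5.56 CPM per kilobase (SD, n = 3), followed by *Eif3k* at 280 ± 4.25, *Eif3f* at 276 ± 7.60 and *Eif3e* at 269 ± 11.0. The last 3 followed each other within their spread, since *Eif3k* and *Eif3f*, and *Eif3f* and *Eif3e*, overlapped. A gap separated them from *Eif3m* at 156 ± 3.62, *Eif3l* at 155 ± 6.69 and *Eif3c* at 147 ± 5.06 CPM per kilobase, each overlapping the next. *Eif3d* at 123 ± 0.600 and *Eif3a* at 108 ± 2.33 were lowest.

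In cKO iGCBs the place of *Eif3e*, taken at its full transcript length, moved from 4 to 9, the bottom of the order, at 105 ± 8.72 CPM per kilobase. *Eif3h* at 339 ± 5.39, *Eif3k* at 274 ± 6.48 and *Eif3f* at 245 ± 4.01 CPM per kilobase were the 3 highest and did not overlap. *Eif3c* followed at 184 ± 9.50, above *Eif3l* at 146 ± 9.35. *Eif3l*, *Eif3m* at 139 ± 5.42, *Eif3d* at 128 ± 8.24 and *Eif3a* at 122 ± 5.82 CPM per kilobase formed a run in which each overlapped the next. *Eif3a* lay just above *Eif3e*, with its lowest library at 115.9 and the highest *Eif3e* library at 115.1 CPM per kilobase.

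Relative to the median of the other 8 genes, *Eif3e* had a level per kilobase of 0.690, 0.575 and 0.652 in the cKO libraries and of 1.80, 1.75 and 1.65 in the control libraries. Relative to *Eif3a*, the lowest of the others in all 6 libraries, it was at 2.49 ± 0.0975 in control iGCBs and 0.861 ± 0.0749 in cKO (SD, n = 3 each). Thus *Eif3e* RNA was more than 2-fold above the least abundant of the other octamer and *Eif3d* RNAs in control libraries. By full transcript length, it was below it in every cKO library. A transcript shortened by the deleted exons would have a higher level per kilobase, and since those exons were not given, this was not tested. *Eif3e* made up 14.3% ± 0.413 of the summed level of the 9 in control libraries and 6.25% ± 0.480 in cKO libraries (SD, n = 3 each). The share of *Eif3c* was 10.9% ± 0.282 in cKO and 7.80% ± 0.252 in control iGCBs, and that of *Eif3a* was 7.27% ± 0.140 and 5.75% ± 0.103. Since *Eif3e* is part of this sum, its fall alone raises the other shares. Those of *Eif3k* (16.3% in cKO and 14.9% in control), *Eif3d* (7.62 and 6.52%) and *Eif3h* (20.2 and 19.6%) were also higher in every cKO library, while those of *Eif3l* (8.66 and 8.25%), *Eif3m* (8.25 and 8.26%) and *Eif3f* (14.6 and 14.7%) overlapped between the groups. Without *Eif3e*, the other 8 summed to 1523 to 1617 CPM per kilobase in cKO and 1603 to 1629 in control libraries, so that the groups overlapped.

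**Figure D4:**
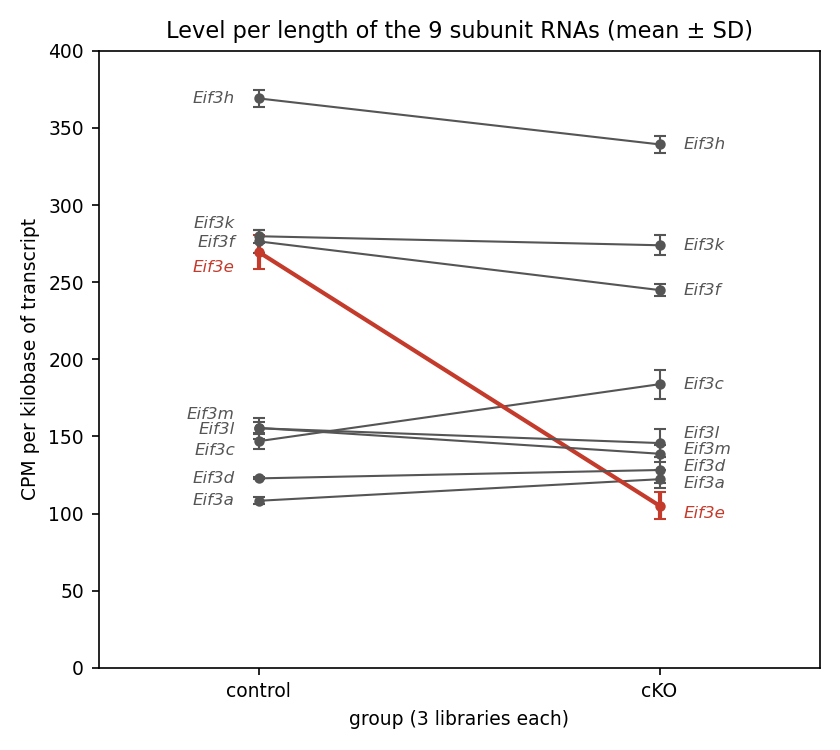
Level of each of the 9 subunit RNAs in CPM per kilobase of transcript, as the mean of 3 control and 3 cKO libraries with SD. *Eif3e*, taken at its full transcript length in both groups, drops from 269 ± 11.0 to 105 ± 8.72, below all the others. *Eif3c* moves up from 147 ± 5.06 to 184 ± 9.50.

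The bases just before the start of transcription are shown for 6 of the genes, because they show which promoter letters the subunits share and which they do not. RefSeq promoters (GRCm38.p6) matched 7 of the 9 genes, all but *Eif3e* and *Eif3h*, and 250 bases before each start were searched on both strands. The letters CCGGAAG, a site for ETS factors, were found in 4 of the 7 and in 7.05% of 27025 promoters. The E-box CACGTG was found in *Eif3k* and *Eif3f* and in 6.05% of all promoters. The GC box GGGCGG was in 5 of the 7 and 32.9%, and CCAAT in 3 of the 7 and 34.5%. Matches are a description of these letters only, and in the *Eif3l* promoter the GC box and the ETS letters lie close together without overlap. By GENCODE bounds, the *Eif3c* window and parts of the *Eif3l* and *Eif3m* windows fall inside the gene. The capitals mark the ETS letters, on either strand, in the first 4 lines and the E-box in the last 2.
*Eif3c*, chr7:126566382-126566411, minus strand: aaccttttcctCTTCCGGcgtcgtgcctgt
*Eif3l*, chr15:79075177-79075206, plus strand: gctgggcgggaCTTCCGGtccggccaagca
*Eif3m*, chr2:105017064-105017093, minus strand: ctgtggctgacCCGGAAGcggttgtgcgta
*Eif3d*, chr15:77970876-77970905, minus strand: gctgtgacacaCTTCCGGttgtgtctcact
*Eif3k*, chr7:28981915-28981944, minus strand: ctggaaggaaatCACGTGgtagacaaaaaa
*Eif3f*, chr7:108934335-108934364, plus strand: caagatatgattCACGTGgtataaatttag
The genes with the ETS letters included *Eif3c*, which was higher in cKO, *Eif3m*, which was lower, and *Eif3l* and *Eif3d*, which did not pass the test. Of the E-box genes, *Eif3f* was lower and *Eif3k* did not pass.

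By position, *Eif3e*, *Eif3h*, *Eif3l* and *Eif3d* all lie on chromosome 15, at 43250058 to 43282719, 51786558 to 51865523, 79075179 to 79094405 and 77958998 to 77970813 (GRCm38, GENCODE M21). *Eif3c*, *Eif3k* and *Eif3f* lie on chromosome 7, *Eif3a* on chromosome 19 and *Eif3m* on chromosome 2. *Eif3m* overlaps *Ccdc73* and *Eif3d* overlaps *Gm17638*, each on the opposite strand, and whether the counting used strand was not given in the sources used here. The transcript table held counts for 1 RefSeq transcript of each of the 9 genes except *Eif3k*, whose main transcript had 99.4% of the gene's counts. The test of the use of the 3 *Eif3k* transcripts did not pass (adjusted p = 1.00, edgeR's diffSpliceDGE), where 0.615% of 7646 transcripts tested passed.

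The other eIF3 subunits, b, g, i and j, have 5 genes here, since *Eif3j1* and *Eif3j2* both encode eIF3j. These gave 3 higher and 0 lower genes at an adjusted p under 0.05, where 48.6% of all genes passed. Past both cutoffs there were 2 of the 5, against 21% of all genes, and their median log2 fold change was 0.57. *Eif3g*, whose product contacts eIF3b and the mRNA channel, was at 180, 199 and 188 CPM in cKO and at 102, 97.3 and 102 CPM in control libraries. Its groups were well separated, with a log2 change of 0.91 (SE 0.0559, adjusted p = 1.92e-06, edgeR), or 1.88-fold. *Eif3b*, the scaffold of the same module, was at 517, 581 and 516 CPM in cKO and at 358, 347 and 382 CPM in control libraries. It rose in every cKO library by a log2 ratio of 0.57 (SE 0.0620, adjusted p = 4.56e-05, edgeR), which at 1.48-fold fell just short of the cutoff. *Eif3i*, the third member of that module, was at 305 ± 27.0 and 311 ± 5.59 CPM (SD, n = 3 each), overlapped between groups and did not pass (log2 fold change −0.03, 95% interval −0.17 to 0.12, adjusted p = 0.772, edgeR). *Eif3j2* was called as higher, with a log2 change of 0.71 (SE 0.121, adjusted p = 0.000768, edgeR), and *Eif3j1* was not (−0.03, SE 0.571, adjusted p = 0.972). Without cKO replicate 2 the log2 fold change of *Eif3j2* was 0.58, under the cutoff, which left 1 called gene. *Eif3b* passed the cutoff without cKO replicate 1 (0.60), without cKO replicate 3 (0.60) and without control replicate 3 (0.61). *Eif3j1* and *Eif3j2* are near-identical copies whose reads the counting may have split, so that each is uncertain. The sum of both was 109, 135 and 119 CPM in cKO and 82.9, 69.2 and 85.8 CPM in control libraries, without overlap, and the log2 ratio of the means was 0.61.

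Of 10 factors that work with eIF3 in the preinitiation complex or at the cap, 5 were higher and 2 were lower at an adjusted p under 0.05, where 48.6% of all genes passed, with a median log2 fold change of 0.13 and a range of −0.38 to 0.63. *Eif5*, the GTPase activator of eIF2 and a binding partner of eIF3c, was the only one of the 10 past both cutoffs, which 21% of all genes passed, at 814, 839 and 786 CPM in cKO and 545, 482 and 550 CPM in control libraries. All cKO libraries lay above all control libraries, with a log2 ratio of 0.63 (SE 0.0585, adjusted p = 1.74e-05, edgeR), or 1.55-fold. Without control replicate 2 it was 0.56 and under the fold cutoff, so that none of the 10 was called. The others, named after their values were seen, included higher RNAs of *Eif4g1*, the cap-complex scaffold that binds eIF3 (log2 fold change 0.45), *Eif2s1*, the alpha subunit of eIF2 (0.54), *Eif1ax*, which opens the mRNA channel (0.46), and *Eif4e*, which binds the cap (0.19). Lower were *Eif1*, which guards start codon choice (−0.29), and *Eif4b*, a helper of the eIF4A helicase (−0.38). The number called was 2 without cKO replicate 3 and 2 without control replicate 3.

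The genes most like *Eif3e* over the 6 libraries, by Pearson's r of log2 CPM among 8505 genes with a mean of at least 10 CPM, were *Cep89*, *Tmem50b*, *Pcnt*, *Cmas* and *Zyx*, each with r = 0.999. *Cep89* and *Pcnt* encode centrosomal proteins, *Cmas* an enzyme that activates sialic acid, and *Zyx* zyxin, a focal adhesion protein. In cKO over control iGCBs, *Cep89* had a log2 change of −1.08, *Zyx* −1.07, *Cmas* −0.72, *Tmem50b* −0.54 and *Pcnt* −0.40. In these 6 points r follows mainly the gap between the groups, and 1285 genes had r above 0.95. Among the subunits, r with *Eif3e* was 0.966 for *Eif3f*, −0.945 for *Eif3c* and −0.996 for *Eif3g*.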

How the data were processed

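Per the labels and the study's methods, poly(A) RNA of sorted YFP+ iGCBs was sequenced. A general culture protocol gives 4 days where the titles give 3. After adapter trimming, the authors used HISAT2 for alignment and StringTie for quantification. The submitters' processing notes name mm10, and tool versions were not given in the sources used here. The authors deposited estimated counts, not normalized and already whole, in a table of genes and a table of RefSeq transcripts that StringTie's prepDE script wrote. These estimates divide reads between transcripts, and so can divide them between near-identical genes.

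R 4.3.3 and edgeR 4.0.16 were used. The filter was filterByExpr (minimum count 10), the scaling TMM and the test glmQLFTest after glmQLFit, comparing cKO with control and with no other term. P-values were adjusted by Benjamini-Hochberg over all 13296 genes. Genes were called at an adjusted p under 0.05 and over 1.5-fold, and intervals are 95%. CPM are counts divided by the TMM-scaled library total, on the usual CPM scale. Lengths and positions are from GENCODE M21, matched by symbol. DESeq2 1.42.0, the study's tool, was an alternative. limma 3.58.1 was loaded by edgeR. The fits were tested on simulated data. The other alternatives took DESeq2's size factors in edgeR, total counts, no filter, at least 10 counts in every sample, the replicate number as a block, *Xist* as a covariate, each library left out in turn, and for counts of calls another fold cutoff. Leaving out immunoglobulin genes could not be run, since no row matched. Named genes are the 9 subunits, the 5 other subunit genes, the called genes of 10 partner factors and the 5 genes most like *Eif3e*. The marker genes, *Emc2*, *Nudcd1*, *Oxr1*, *Xist* and 6 further partner factors fall outside this rule and were chosen after their values were seen. The genes and lists were chosen with earlier results of these data known.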

Additional observations from a re-analysis of the deposited data

How the results depend on the processing

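*Eif3e* had a log2 fold change between −1.43 and −1.32 and was called under all 13 alternatives. Over 14 subunit and partner genes other than *Eif3e*, 161 of 182 values kept their direction and side of the threshold, 15 lost significance and 6 turned direction. The median log2 fold change of all genes lay between −0.0084 and 0.0076 over all fits. Of all genes, 2793 were called (1378 higher, 1415 lower), 2547 to 2862 without 1 library, 1164 in a test against 1.5-fold and 6468 with no fold cutoff. Of the 9 subunits, 1 was called, 6 with no fold cutoff, and 3 to 5 at any fold without 1 library. The other subunit genes gave 1 to 3 calls and the partners 0 to 2 without 1 library. *Eif3j1*, which has no call, turned from −0.03 to values between −0.88 and 0.78 without 1 library, being 0.26 without cKO replicate 1 or 2 and 0.78 without control replicate 1, and *Eif3i* from −0.03 to between −0.10 and 0.03, being 0.0290 without cKO replicate 3, and to 0.0058 when *Xist* was a covariate. The cause was not tested. The replicate numbers of the labels did not meet the limit set for pairing, a correlation over 0.1 in every pair: deviations of same-numbered samples correlated at 0.00988, 0.0735 and 0.107, with cKO replicates 2 and 3 correlating best with their own number and cKO replicate 1 with control replicate 3. With the replicate number as a block, 2735 genes were called, and 5 of the 9 subunits had an adjusted p under 0.05, without *Eif3h* at 0.0842, and *Eif3j1* was at 0.0354. At 39079582 counts or more per library, counting error was small for the 9 subunits, and the spread between 3 mice limits the smaller changes.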
